A study of Brassica rapa with 6 samples.

Results

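The ERF and DREB transcription factors of Chinese cabbage (Brassica rapa) were followed in leaf and petiole. Members are the genes whose annotated transcript is described as an ethylene-responsive transcription factor or a dehydration-responsive element-binding protein, leaving out descriptions that contain AP2-like. The rule found 216 genes among the 45517 that had a gene value. The study compared total RNA of wild-type, greenhouse-grown plants between leaf and petiole, with 3 libraries of each tissue, after removal of ribosomal RNA and with strand-specific library preparation. The labels give no cultivar, age or treatment. They do not say whether the libraries came from separate plants, so every p-value measures only the spread between these libraries, which may be technical.

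Proteins of this family carry a single AP2 DNA-binding domain and are among the most numerous plant transcription factors. ERF proteins are known to bind the GCC box in genes of defence and ethylene responses, while DREB proteins bind the dehydration-responsive element in genes of cold and drought responses. In Arabidopsis the family is sorted into numbered groups, with the DREB proteins in groups I to IV and the ERF proteins in groups V to X. The members were placed in these groups by the Arabidopsis protein named in their description, and the roles given here are those known from Arabidopsis. The genes are compact. Of the 216 members, 174 (80.56%) have a single exon, against 23.85% of 45513 annotated genes, and their median coding length is 706.5 bases against 936.

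The libraries held 111518411 to 132861243 estimated linear counts, of which 68073160 to 104023132 fell in gene values. Levels are CPM, that is, counts scaled to a common total of counts in gene values, scaled between libraries by TMM. Changes are log2 differences, petiole minus leaf, with the standard error (SE) of edgeR's quasi-likelihood test and a p-value adjusted over the 27984 genes tested. A gene was called at an adjusted p below 0.05. The labelled tissues were checked against mesophyll markers (small subunit of ribulose bisphosphate carboxylase and chlorophyll-binding proteins). These were lower in petiole for 27 of 28 tested genes, with summed levels of 8662 to 9024 CPM in leaf and 548 to 598 CPM in petiole. Early genes known to rise on touch or wounding were also measured, because many ERF genes are known to respond to handling. Of 28 tested, 13 were higher and 7 lower in petiole, with a median log2 difference of 0.80, and their sum was 2443 to 2624 CPM in leaf and 3769 to 3883 CPM in petiole. Their part in the members' changes was not tested. In whole tissue, fewer cells of a type and less RNA per cell cannot be told apart.

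Most expressed members differed between the tissues, with more rises than falls in petiole. Of the 216 members, 154 had enough counts to be tested, 62 did not, and 33 of these 62 had no count in any library. Of the 154, 61 (39.6%) were higher in petiole, 41 (26.6%) were lower and 52 were not called. Among all tested genes 31.4% were higher and 31.0% were lower, so the members' share of calls, 66.2%, lies near the 62.4% of all genes. The members' median log2 difference was 0.33, against 0.01 over all tested genes. Rises of at least 2 on the log2 scale were found in 32 members, or 20.8% of those tested, beside 9.16% of all genes. Falls of that size were found in 14 members, or 9.09%, against 8.57%. Of the 154 tested members, the libraries of the tissues did not overlap for 71 with petiole higher and for 45 with petiole lower. Over all 27984 tested genes the shares were 35.9% and 35.3%.

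The summed level of the family was lower in petiole, although more members rose than fell. The members added up to 4372, 4262 and 4471 CPM in leaf and to 3640, 3573 and 3643 CPM in petiole, without overlap. Within leaf the 10 members with the highest CPM held 66.8% to 67.5% of that sum, and within petiole 54.4% to 55.6%. A level of at least 1 CPM was reached by at most 104 members in a leaf library and by at least 112 in a petiole library. The leaf sum was thus spread over fewer members.

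**Figure D1:**
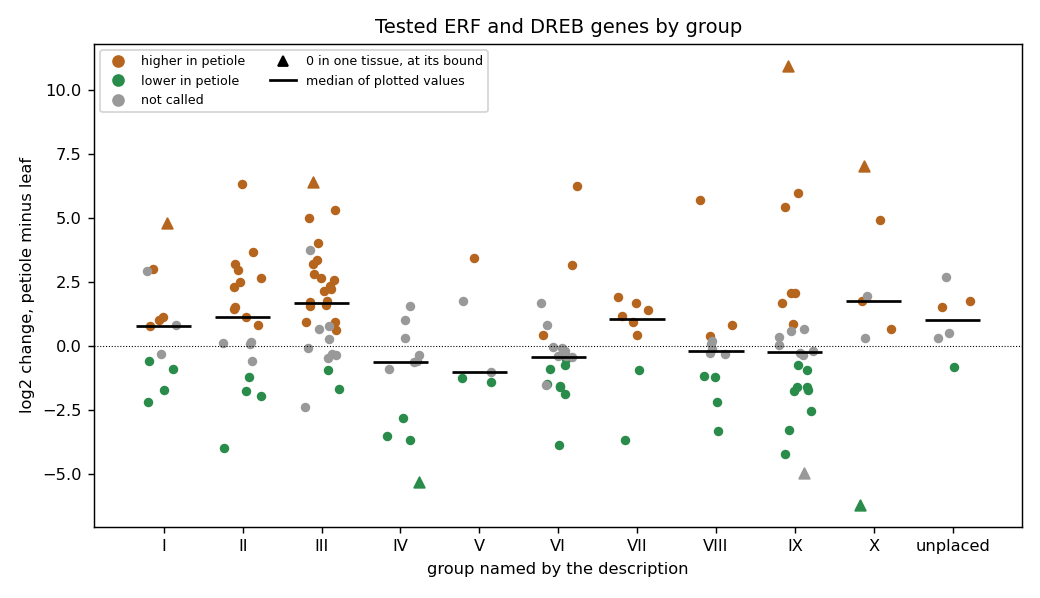
Log2 difference in level, petiole minus leaf, for each tested member in each group; colour marks the members called higher, called lower or not called, triangles mark members at 0 in one tissue at their bound, and lines mark the group medians. The 19 members called higher in group III stand against 2 called lower, and all 4 calls of group IV lie below 0.

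**Figure D2:**
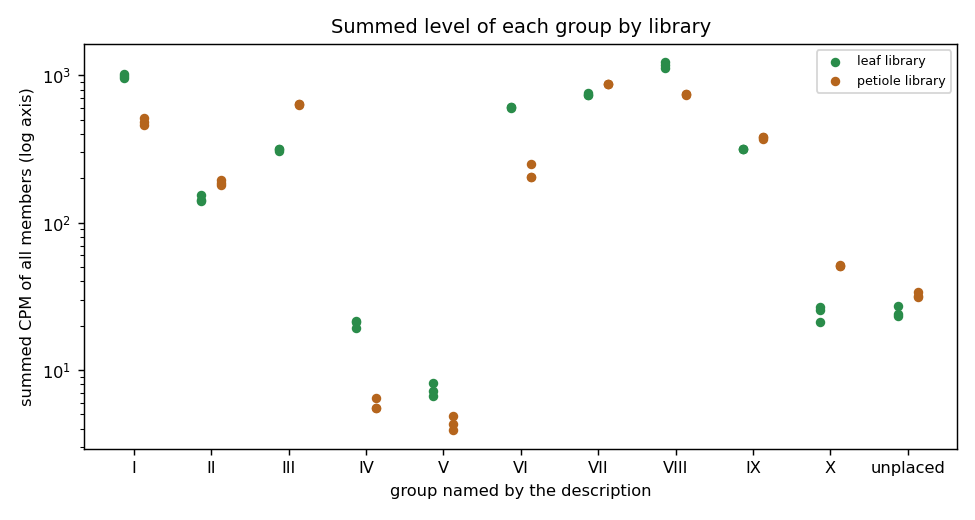
Summed level of the members of each group, in CPM, in each of the 6 libraries, on a log axis. The mean of group III is 313 CPM in leaf and 635 CPM in petiole, and that of group VI is 605 CPM in leaf and 219 CPM in petiole.

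The signs of the group medians depend on the scale of the values. On the deposited FPKM scale the median of all genes moved to 0.48 with a pseudocount of 1 and to 0.72 with a pseudocount of 0.1. Rises then made up 72.8% and 73.3% of the members' calls, against 59.8% on the counts. Over all genes rises made up 79.5% of the calls on both FPKM scales, against 50.3% on the counts. The members' share of rises was thus above that of all genes on the counts and below it on FPKM. Relative to all genes, the members' median was 0.05 and 0.25 on the FPKM scales and 0.32 on the counts. Directions are therefore read against the median of all genes. Read that way, every group median given here kept its sign on both FPKM scales except that of group I, which was -0.05 with the pseudocount of 1, 0.68 with that of 0.1 and 0.79 on the counts. The calls of each group stand beside 31.4% higher and 31.0% lower over all tested genes.

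Group III, which holds the cold-response DREB1 genes and TINY with its relatives, had the highest share of rises among the DREB groups. Of 30 tested members 19 were higher, 2 lower and 9 not called, with a median log2 difference of 1.68. Without the DREB1 genes the count was 16 higher and 8 not called of 24. None of these 24 was called lower by edgeR, and 0 reached an unadjusted p below 0.05 in that direction. DESeq2 and limma on FPKM also gave 0 falls. Their summed level was 106.7 to 114.1 CPM in leaf and 479 to 486 CPM in petiole.

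In petiole most of that sum came from ERF025 (BraA10g010550.3C, chromosome A10, 8673316 to 8674029). It stood at 55.8, 48.0 and 48.9 CPM in leaf and at 304, 303 and 306 CPM in petiole. All petiole libraries lay far above all leaf libraries, and the log2 difference was 2.58 (SE 0.0631, edgeR adjusted p = 2.42e-08). In petiole it was the second highest member per coding length, at 286 to 288 FPKM, after ERF4 at 385 to 399 FPKM. ERF042 (BraA04g019000.3C) was at 0 in the 3 leaf libraries and at 1.02, 1.02 and 1.58 CPM in petiole. That is at least 85.5-fold higher when leaf is set at 3 counts over its libraries, a bound that covers counting error only. ERF023 (BraA09g066070.3C) was near the limit of counting, at 0.0288, 0 and 0 CPM in leaf and 0.452, 0.612 and 0.250 CPM in petiole. Its log2 difference was 5.33 (SE 1.39, edgeR adjusted p = 0.0106), and 8.26 without leaf replicate 1.

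TINY, an activator known to bind both the dehydration-responsive and the ethylene-responsive element in Arabidopsis, rose at both of its tested copies. The copy on chromosome A09 (BraA09g005790.3C) read 0.173, 0.0411 and 0.455 CPM in leaf and 6.61, 7.22 and 7.48 CPM in petiole, a log2 difference of 4.99 (SE 0.654, edgeR adjusted p = 0.000273) that became 6.04 without leaf replicate 3. Among members chosen after their values were seen, all 3 copies of ERF043 rose, by 1.62 to 4.02 on the log2 scale. All 3 copies of ERF034 rose too, by 0.61 to 0.95.

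The DREB1 genes, the C-repeat binding factors of the cold response and their relatives, did not move as one. Of 6 tested, 3 were higher and 2 lower, and their sum was 201 to 206 CPM in leaf and 149 to 158 CPM in petiole. DREB1D (BraA10g010540.3C), known as CBF4 in Arabidopsis and there linked to drought, was at 90.5, 90.5 and 91.6 CPM in leaf and at 25.4, 30.0 and 29.3 CPM in petiole. It fell by 1.69 on the log2 scale (SE 0.0730, edgeR adjusted p = 4.46e-07). DREB1C (BraA03g052550.3C), chosen after its values were seen, fell by 0.91, from 89.3 to 93.0 CPM in leaf to 47.2 to 49.8 CPM in petiole. Both copies of DREB1F, known as DDF1 and as a regulator of gibberellin levels under salt stress, rose, by 1.78 and 2.84. Per coding length, DREB1C and DREB1D led the DREB1 genes in leaf, at 54.8 to 57.4 and 54.0 to 55.1 FPKM. In petiole the DREB1F copy BraA08g030860.3C led them, at 58.5 to 65.6 FPKM.

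Group IV, which holds DREB2A and the other DREB2 genes of the heat and drought response, had falls but no rises among its calls. Of 11 tested, 4 were lower and 7 not called, with a median of -0.63. The share of falls, 36.4%, lies near the 31.0% of all tested genes. By edgeR on all libraries 0 were higher, at an adjusted or an unadjusted p below 0.05. DESeq2 and limma on log2(FPKM + 1) gave 0 rises as well, and limma on log2(FPKM + 0.1) gave 1. DREB2A (BraA10g028330.3C) stood at 10.0, 10.1 and 11.4 CPM in leaf and at 0.913, 1.76 and 1.86 CPM in petiole, a log2 difference of -2.80 (SE 0.280, edgeR adjusted p = 5.58e-05). A second copy (BraA02g001730.3C) differed by -3.65, from 2.32 to 3.83 CPM in leaf to 0.0816 to 0.435 CPM in petiole, and by -4.34 without petiole replicate 3. The third copy, BraA03g002090.3C, read 0, 0.219 and 0 CPM in leaf and 0.221, 0.153 and 0.283 CPM in petiole, and its difference of 1.56 was not called (edgeR adjusted p = 0.426). Without leaf replicate 2, when leaf is at 0, it was called at 7.26 (adjusted p = 0.0253), and limma on log2(FPKM + 0.1) called it at 0.98. DREB2D was low in both tissues. Its copy BraA07g027750.3C had 0.634, 0.151 and 0.427 CPM in leaf and 0 in all petiole libraries, at least 39.6-fold lower against the floor of 3 counts. The other copy, BraA02g022800.3C, was called at -3.52 (edgeR adjusted p = 0.0392), but the adjusted p rose to 0.0623 to 0.102 when 1 of 4 libraries was left out: leaf replicate 1, 2 or 3, or petiole replicate 3. Without petiole replicate 1 the difference was -5.59.

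Group II, a DREB group with both activators and repressors, rose more often than it fell. Of 19 tested, 11 were higher, 4 lower and 4 not called, with a median of 1.15. ERF019 (BraA07g014470.3C) was at 0, 0.0548 and 0.0569 CPM in leaf and at 3.67, 2.43 and 3.19 CPM in petiole, a log2 difference of 6.32 (SE 0.758, edgeR adjusted p = 0.000162). RAP2-1 (BraA08g005370.3C), known in Arabidopsis as a repressor of cold and drought genes, moved the other way. Its level was 5.95, 5.35 and 8.01 CPM in leaf and 0.240, 0.429 and 0.554 CPM in petiole. It fell by 3.98 on the log2 scale (SE 0.368, edgeR adjusted p = 3.45e-05). Among members chosen after their values were seen, both copies of ERF018, known as ORA47 and as an activator of jasmonate synthesis genes, rose by 0.82 and 1.15.

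Group I had about as many rises as falls, while its summed level fell in petiole. Of 12 tested, 5 were higher, 4 lower and 3 not called, and the sum went from 960 to 1019 CPM in leaf to 462 to 514 CPM in petiole. RAP2-4 (BraA07g041190.3C, chromosome A07, 27834172 to 27835158), known in Arabidopsis as WIND1 and linked to cell dedifferentiation at wounds, was among the highest members in leaf per coding length, at 239 to 258 FPKM beside 222 to 275 FPKM for ERF4. It stood at 599, 584 and 640 CPM in leaf and 198, 171 and 186 CPM in petiole, a log2 difference of -1.71 (SE 0.0614, edgeR adjusted p = 1.58e-07). Its relative RAP2-13 (BraA09g040790.3C) fell by 0.88, from 280, 286 and 281 CPM to 166, 146 and 150 CPM. The leaf sum of the group rests on these 2 genes. ERF057 (BraA02g044990.3C) was at 0 in leaf and at 0.0385, 0.408 and 0.739 CPM in petiole, at least 28.0-fold higher over the libraries together. Petiole replicate 1 carried little of it, and the call (edgeR adjusted p = 0.0168) was not made with the replicate block (adjusted p = 0.0662) or by limma on log2(FPKM + 1), where the adjusted p was 0.0527. On that scale its difference of 0.37 lies below the median of all genes, 0.48, so its direction turns when read against that median. On log2(FPKM + 0.1) it was 1.75, above the median of 0.72. ERF060 (BraA03g061310.3C) had the largest fall of the group, -2.17 (SE 0.557, edgeR adjusted p = 0.0099), and -2.99 without petiole replicate 1. It read 4.37, 2.30 and 4.21 CPM in leaf and 1.5, 0.510 and 0.402 CPM in petiole.

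Group IX, the ethylene- and jasmonate-responsive activators of defence genes, moved in both directions. Of 24 tested members 7 were higher, 9 lower and 8 not called, with a median of -0.22. The shares, 29.2% higher and 37.5% lower, lie near the 31.4% and 31.0% of all tested genes. The subgroups named next were drawn after the values were seen and are given as a description. ERF5, ERF6 and ERF13, known in Arabidopsis to act in defence and in limiting leaf growth under osmotic stress, were higher at 6 of 6 genes, and their sum was 43.5 to 50.7 CPM in leaf and 253 to 257 CPM in petiole. ERF094 and ERF104 to ERF107 were lower at 8 of 9 genes, with a sum of 203 to 216 CPM in leaf and 57.7 to 64.2 CPM in petiole.

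All 3 copies of ERF13 were among the 10 largest rises of the family. The copy on chromosome A04 (BraA04g030920.3C, 21141343 to 21142050) was at 1.83, 1.05 and 1.22 CPM in leaf and at 54.8, 60.5 and 61.6 CPM in petiole. Its log2 difference was 5.43 (SE 0.200, edgeR adjusted p = 1.86e-07). The copy on chromosome A05 (BraA05g004720.3C) was at 0, 0 and 0.171 CPM in leaf and at 3.27, 4.16 and 3.63 CPM in petiole. Its difference was 5.99 (SE 1.11, edgeR adjusted p = 0.00192), and 11.33 without leaf replicate 3, when leaf is at 0. The copy on chromosome A09 (BraA09g000880.3C, 513242 to 515036), described as ERF13-like, was at 0 in the 3 leaf libraries and at 30.9, 30.8 and 21.2 CPM in petiole. Against the floor that is at least 1962-fold higher.

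The bound for the A09 copy holds for the gene value only. Several transcripts are listed under this gene, and which of them are counted decides how far leaf and petiole lie apart. The annotated transcript had 0 in leaf and 0.0385, 0.163 and 0 CPM in petiole. Of the assembled transcripts that share a splice junction with it, one read 6.34, 13.7 and 21.2 CPM in petiole and the other 24.6, 17.0 and 0 CPM, so the share of each differed from library to library. A further transcript overlaps the gene on the same strand without a shared junction and is not in the gene value. It read 5.59, 4.46 and 4.76 CPM in leaf and 40.5, 42.4 and 58.0 CPM in petiole, a log2 difference of 3.31 (SE 0.193, edgeR adjusted p = 0.000207 over all tested isoforms). RNA from the locus was thus present in leaf, and both transcripts that were called were higher in petiole.

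**Figure D3:**
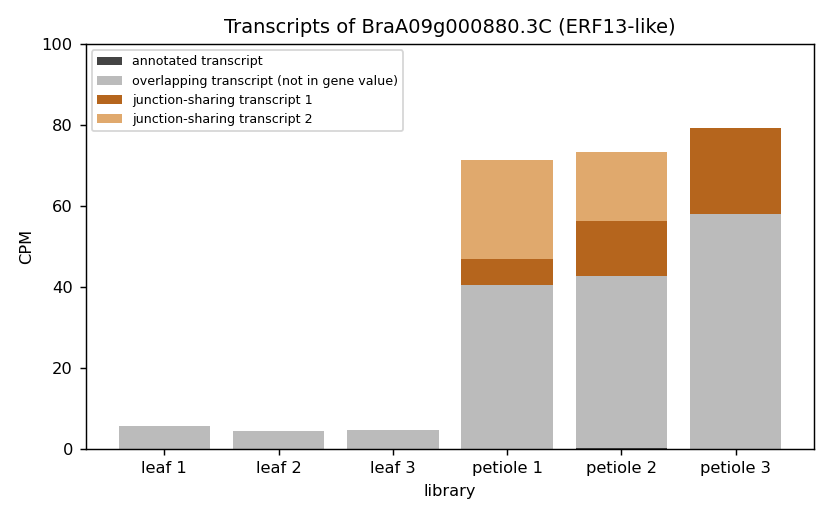
Level of each transcript listed under the ERF13 gene BraA09g000880.3C, in CPM, stacked for each of the 6 libraries. The overlapping transcript outside the gene value reads 4.46 to 5.59 CPM in leaf, where the transcripts of the gene value are at 0.

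ERF6 (BraA08g012430.3C) and ERF1A (BraA08g012440.3C), an ethylene-responsive activator of GCC-box genes, lie next to each other on chromosome A08, 6309 bases apart. ERF6 was at 11.4, 11.9 and 12.2 CPM in leaf and at 52.6, 49.0 and 49.8 CPM in petiole, a log2 difference of 2.09 (SE 0.0723, edgeR adjusted p = 1.33e-07). ERF1A rose by 0.87 (SE 0.191, edgeR adjusted p = 0.00461), from 4.27 to 5.31 CPM to 7.01 to 10.4 CPM. Both genes rose, without overlap between tissues.

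The falls of group IX were led by ERF106 (BraA10g029700.3C), at 26.6, 21.6 and 28.1 CPM in leaf and 0.884, 1.47 and 1.75 CPM in petiole. Its difference was -4.22 (SE 0.258, edgeR adjusted p = 3.16e-06). ERF107 (BraA09g007050.3C), known in Arabidopsis as DEWAX, a repressor of wax synthesis genes, was at 16.4, 17.4 and 14.5 CPM in leaf and 1.98, 1.29 and 1.66 CPM in petiole. It differed by -3.29 (SE 0.191, edgeR adjusted p = 2.3e-06). ERF094 (BraA09g064090.3C), known as ORA59, an integrator of jasmonate and ethylene signals, was chosen after its values were seen: it differed by -2.52, from 35.7 to 38.3 CPM to 5.64 to 7.17 CPM. In each of these 3 genes the lowest leaf library stood several-fold above the highest petiole library.

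**Figure D4:**
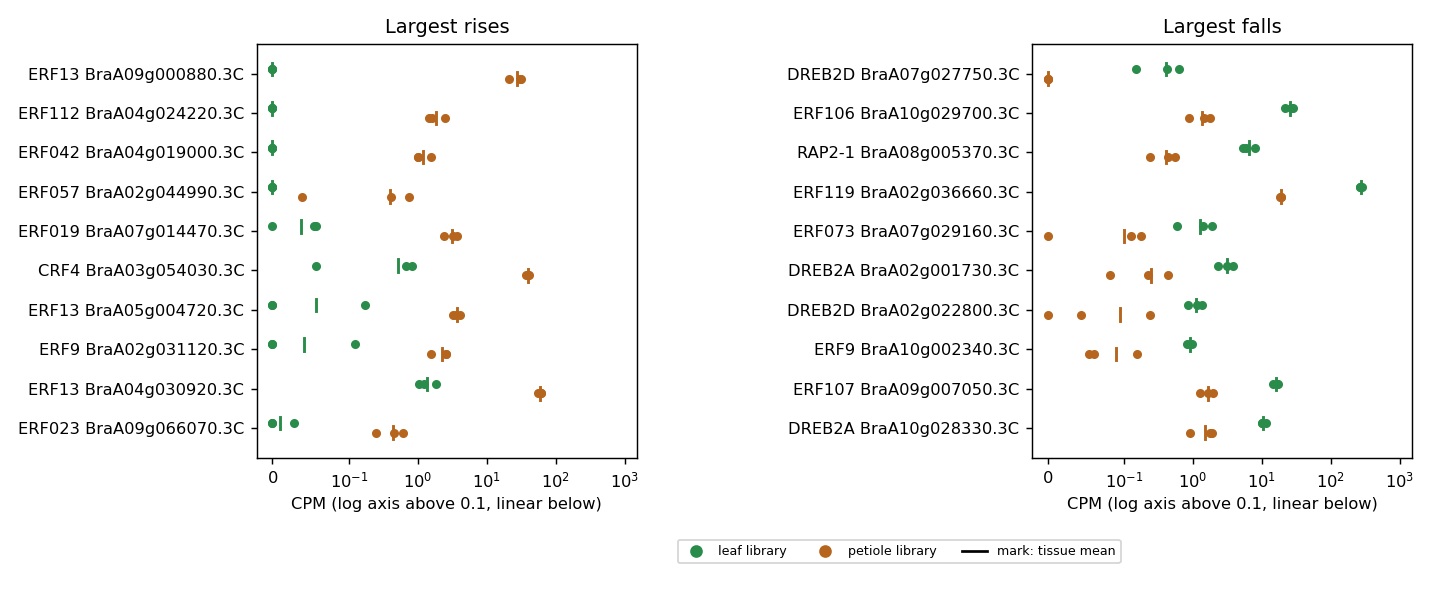
Level in CPM of the 10 members with the largest called rises and the 10 with the largest called falls in petiole, taken among members whose tissues do not overlap, for each library, with a mark at each tissue mean; the axis is logarithmic above 0.1 CPM and linear below. That choice left out ERF112 BraA05g011240.3C, called at -8.98 with overlap; 4 of the rises start from 0 in all leaf libraries.

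Group VII, whose proteins are stabilised when oxygen is low and switch on genes of anaerobic metabolism, was called at every tested member. Of 8 tested, 6 were higher and 2 lower, with a median of 1.06 and a sum of 736 to 765 CPM in leaf and 876 to 879 CPM in petiole. RAP2-12 (BraA08g001340.3C) rose from 103, 105 and 109 CPM to 139, 147 and 148 CPM, a log2 difference of 0.46 (SE 0.0447, edgeR adjusted p = 4.97e-05). All 3 copies of RAP2-3 rose, by 1.41 (BraA01g035730.3C, from 53.3 to 55.2 CPM to 143 to 147 CPM), by 0.94 (BraA03g037650.3C) and by 1.90 (BraA05g030500.3C).

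RAP2-2 did not move as one gene. BraA05g032790.3C, the highest copy in FPKM, was at 438, 422 and 444 CPM in leaf and 224, 229 and 231 CPM in petiole, and differed by -0.93 (SE 0.0350, edgeR adjusted p = 2.07e-07). BraA03g036320.3C rose by 1.70 (SE 0.0541, edgeR adjusted p = 8.53e-08), from 24.1 to 25.5 CPM to 80.3 to 81.4 CPM. BraA01g037410.3C rose by 1.17, from 103, 114 and 113 CPM to 255, 243 and 242 CPM. Its rise lies in an assembled transcript that shares a junction with the annotated one, at 101 to 111 CPM in leaf and 241 to 249 CPM in petiole. The annotated transcript alone was at 1.62 to 5.28 CPM in leaf and 0.739 to 6.05 CPM in petiole, with a difference of -0.05 when genes were tested on annotated transcripts alone. FPKM scales by the length of each transcript. That of BraA01g037410.3C rests mainly on the assembled transcript, whose length need not be the coding length, so the copies are set on unlike lengths. BraA05g032790.3C stood at 149 to 155 FPKM in leaf beside 27.5 to 31.6 FPKM for BraA01g037410.3C. In petiole they stood at 133 to 136 and 109 to 117 FPKM, in the same order and much closer together. The remaining copies, BraA01g037630.3C and BraA01g037640.3C, lie side by side and had no count.

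ERF073, known in Arabidopsis as HRE1, a gene switched on under low oxygen, fell at its one tested copy (BraA07g029160.3C). It read 0.591, 1.86 and 1.39 CPM in leaf and 0.125, 0.173 and 0 CPM in petiole, a difference of -3.66 (SE 1.16, edgeR adjusted p = 0.0252). The call was lost without leaf replicate 2 (adjusted p = 0.0781), leaf replicate 3 (0.0559) or petiole replicate 1 (0.0558), and the difference was -4.30 without petiole replicate 2. The other copy, BraA07g036780.3C, was not tested.

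Group VIII, whose proteins mostly repress transcription through an EAR motif, had the largest summed CPM of all groups in leaf. Of 29 members 12 were tested, 3 of them higher, 4 lower and 5 not called. The sum was 1115 to 1226 CPM in leaf and 741 to 745 CPM in petiole. ERF4 (BraA03g036860.3C), a repressor in ethylene, jasmonate and abscisic acid responses, was at 398, 350 and 439 CPM in leaf and 376, 363 and 368 CPM in petiole. The tissues overlapped, and the difference of -0.10 was not called (edgeR adjusted p = 0.279). On the FPKM scale the same gene was higher in petiole, without overlap, at 222 to 275 FPKM in leaf and 385 to 399 FPKM in petiole. Limma called it at 0.66 with either pseudocount (adjusted p = 9.24e-05 and 0.000101), which is above the median of all genes with the pseudocount of 1 and below it with that of 0.1. ERF11, a repressor known to act on ethylene synthesis genes, was lower at both of its called copies. BraA08g024350.3C read 298, 282 and 305 CPM in leaf and 131, 134 and 128 CPM in petiole, a difference of -1.17 (SE 0.0426, edgeR adjusted p = 1.75e-07). BraA07g011650.3C read 279, 289 and 258 CPM in leaf and 55.9, 62 and 64.1 CPM in petiole, a difference of -2.18 (SE 0.0670, edgeR adjusted p = 7.13e-08). Per coding length these 2 copies overlapped in leaf, at 219 to 234 and 203 to 230 FPKM, and in petiole the first stood above the second, at 165 to 174 against 74.5 to 84.5 FPKM.

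ERF9, a repressor of defence genes, differed in opposite directions at its low copies. BraA02g031120.3C was at 0, 0.123 and 0 CPM in leaf and at 1.58, 2.58 and 2.53 CPM in petiole, a log2 difference of 5.69 (SE 1.18, edgeR adjusted p = 0.00339), and of 10.6 without leaf replicate 2. BraA10g002340.3C was at 0.821, 0.972 and 0.896 CPM in leaf and at 0.154, 0.0612 and 0.0543 CPM in petiole, a difference of -3.29 (SE 0.740, edgeR adjusted p = 0.00518), and of -3.92 without petiole replicate 1. The genes of the group that are known for shoot and leaf shape were not detected at a level that could be tested. LEP, named for the leafy petiole of the Arabidopsis plants in which it is overactive, had no count in any library (BraA03g005970.3C). Of the ESR1 and ESR2 copies, 3 had no count, and ESR1 BraA06g008740.3C had 0.0569 CPM in leaf replicate 3 and 0 elsewhere. A count of 0 over the 3 libraries of a tissue allows up to 0.0141 CPM in leaf and 0.0102 CPM in petiole.

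Group VI, which holds the cytokinin response factors (CRF) and ERF116 to ERF119, fell in sum. Of 20 tested, 3 were higher, 8 lower and 9 not called, with a median of -0.41 and a sum of 597 to 612 CPM in leaf and 203 to 250 CPM in petiole. ERF119 (BraA02g036660.3C, chromosome A02, 25586054 to 25586899) gave much of that sum. It stood at 282, 267 and 264 CPM in leaf and at 19.1, 18.8 and 18.3 CPM in petiole, a log2 difference of -3.85 (SE 0.0479, edgeR adjusted p = 1.81e-09). An overlapping transcript on the same strand that is not in its gene value went the same way, from 109 to 124 CPM in leaf to 8.14 to 8.75 CPM in petiole. The second copy of ERF119, BraA06g038610.3C, chosen after its values were seen, fell by 1.59. One gene of the group had a library that stood apart: ERF118 (BraA07g030720.3C), also chosen after its values were seen, read 80.3, 82.1 and 80.7 CPM in leaf and 11.3, 8.24 and 46.3 CPM in petiole. It differed by -1.88 (edgeR adjusted p = 0.023) and by -3.05 without petiole replicate 3, and the call was lost without leaf replicate 2 (adjusted p = 0.0501) or petiole replicate 1 (0.0688).

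The CRF genes themselves, only some of which are known to be switched on by cytokinin in Arabidopsis, gave 3 higher, 4 lower and 5 not called of 12. Their sum was 58.1 to 60.8 CPM in leaf and 86.1 to 92.3 CPM in petiole. CRF4 carried the rise of that sum. BraA03g054030.3C was at 0.663, 0.835 and 0.0569 CPM in leaf and at 37.6, 40.1 and 41.3 CPM in petiole. Its log2 difference was 6.25 (SE 0.563, edgeR adjusted p = 2.98e-05). Another copy, BraA08g019240.3C, was at 19.6, 19.5 and 17.9 CPM in leaf and 13, 12.4 and 14.6 CPM in petiole, and differed by -0.51 on the counts (SE 0.10, edgeR adjusted p = 0.0025) but by 0.21 and 0.23 on the FPKM scales. Per coding length the first copy was below the other in leaf, at 0.0204 to 0.343 against 7.23 to 7.98 FPKM, and above it in petiole, at 26.0 to 28.2 against 8.46 to 9.87 FPKM.

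Group X, which includes wound- and stress-induced genes such as ABR1 and ERF109, gave 4 higher, 1 lower and 2 not called of 7, with a sum of 21.2 to 26.9 CPM in leaf and 50.9 to 51.3 CPM in petiole. ERF112 had a gene value of 0 in leaf at one copy and in petiole at the other. BraA04g024220.3C was at 0 in leaf and at 1.43, 2.51 and 1.6 CPM in petiole, at least 131-fold higher (edgeR adjusted p = 0.00021). BraA05g011240.3C was at 0.447, 1.79 and 0 CPM in leaf and at 0 in petiole, at least 73.2-fold lower as a mean (edgeR adjusted p = 0.0287), though leaf replicate 3 was also at 0. That call was lost when leaf replicate 1 or any 1 petiole library was left out (adjusted p = 0.0518 to 0.0579). Most of the counts of this gene lay in leaf replicate 2. Without that library its mean fell below 10 counts and it was not tested. Limma did not make the call either, with adjusted p of 0.113 on log2(FPKM + 1) and 0.0753 on log2(FPKM + 0.1). A single-exon transcript over this gene that is not in the gene value read 5.43 to 8.86 CPM in leaf and 1.43 to 5.08 CPM in petiole and was not called (edgeR adjusted p = 0.248), so RNA from the locus was present in both tissues. With all transcripts under the gene name counted, the difference was -1.14 (edgeR adjusted p = 0.0375). Chosen after its values were seen, ABR1 (BraA02g044760.3C), a repressor of abscisic acid responses, rose by 4.94, from 0 to 0.519 CPM to 6.03 to 7.15 CPM. Without leaf replicate 1 it rose by 6.57, and without leaf replicate 3 by 4.36. The annotated ABR1 transcript was at 0 in every library. All counts of the gene value lay in an assembled transcript that shares a junction with it. Tested as an isoform, that transcript was not called (edgeR adjusted p = 0.0652).

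Group V, which includes the wax activators of the SHINE clade, was low, with 1 higher, 2 lower and 2 not called of 5. SHINE 3 (BraA06g032700.3C) was at 0, 0.0274 and 0.171 CPM in leaf and at 0.625, 0.867 and 0.695 CPM in petiole, a difference of 3.44 (SE 1.23, edgeR adjusted p = 0.0401). That was 5.57 without leaf replicate 3, and the call was lost without leaf replicate 2 or any 1 petiole library (adjusted p = 0.0676 to 0.104). ERF003 (BraA06g032530.3C) had the largest fall, -1.39 (SE 0.520, edgeR adjusted p = 0.047), from 0.821 to 1.82 CPM to 0.375 to 0.582 CPM. Leaving out any library but leaf replicate 2 lost its call, with adjusted p between 0.065 and 0.182. Members that could not be placed in a group included RAP2-7, known in Arabidopsis as TOE1, a flowering repressor of the related AP2 family that the description brought in. It rose by 1.75 at BraA03g024840.3C (SE 0.143, edgeR adjusted p = 1.64e-05), from 2.90 to 3.37 CPM to 10.0 to 11.4 CPM. ERF120 (BraA03g053310.3C) fell by 0.81 (edgeR adjusted p = 0.0112).

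Copies that carry the same name did not always receive the same call, and differences between copies were not tested. Brassica rapa is known to have had its ancestral genome tripled, so that an Arabidopsis gene often has several counterparts. The members carry 114 names, of which 71 are shared by several genes and 49 by at least 2 tested genes. Of these 49 names, 11 had all tested copies higher and 5 had all lower. Another 23 had some copies called in one direction and the rest not called, 3 had none called, and 7 had copies called in opposite directions. The 7 are CRF3, CRF4, ERF012, ERF112, ERF9, RAP2-2 and RAP2-4. For several of them the opposite calls depend on 1 library or on the setting. The rise of CRF3 BraA02g014680.3C (0.43) lost its call in 4 of the fits with 1 library left out, and the fall of ERF112 BraA05g011240.3C in 4 as well. Without leaf replicate 2 that ERF112 gene had too few counts to be tested. The rise of RAP2-2 BraA01g037410.3C is absent on annotated transcripts alone, where BraA03g036320.3C still rises. The fall of CRF4 BraA08g019240.3C and that of RAP2-4 BraA02g024500.3C (-0.58) turned to 0.21 and 0.16 on log2(FPKM + 1), both below the median of all genes. Where at least 2 copies were called, they went the same way for 21 of 28 names. The median range of the log2 difference within a name was 1.67. Reads of copies with near-identical sequence can be shared between them by the quantification, so levels of such copies are uncertain.

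**Figure D5:**
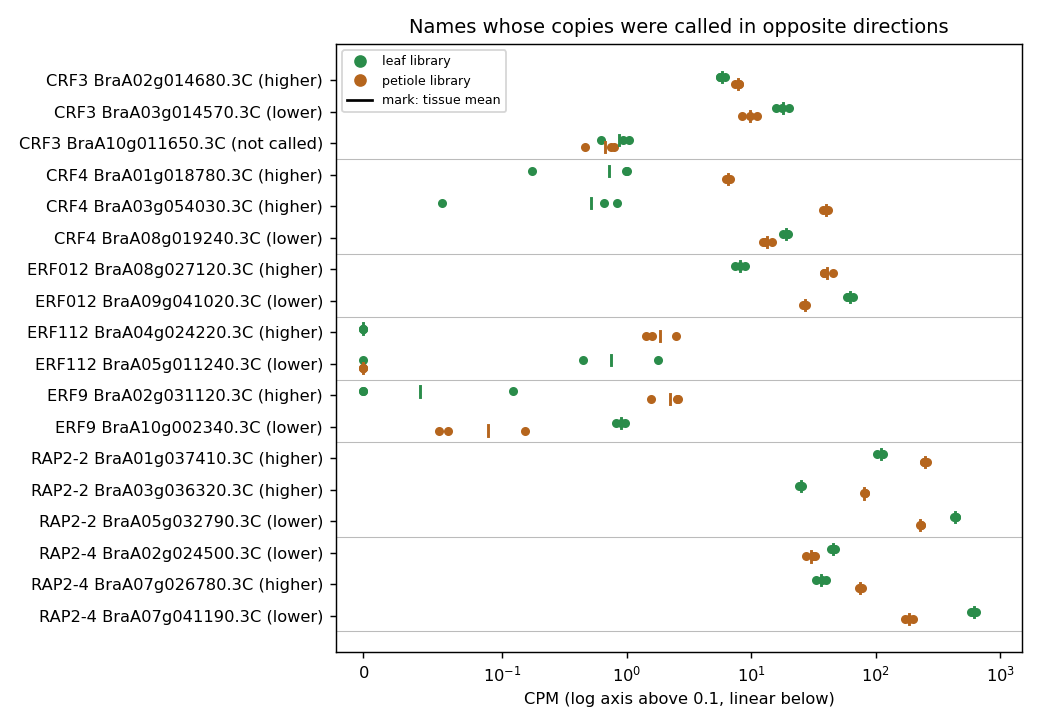
Level in CPM of each tested copy of the 7 names with copies called in opposite directions, for each library, with a mark at each tissue mean; the axis is logarithmic above 0.1 CPM and linear below. In RAP2-2 the copy BraA05g032790.3C is lower in petiole and the other tested copies are higher.

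Members that lie close together gave runs of both kinds. There were 20 runs in which members were at most 10 annotated genes apart, and in 3 of them all members were called in one direction. On chromosomes A04 and A05 an ERF034 gene lies near an ERF13 gene (BraA04g030870.3C and BraA05g004780.3C for ERF034), 34926 and 30129 bases apart, and all 4 genes were higher in petiole. The third such run is that of ERF6 and ERF1A. In 3 other runs members were called in opposite directions. DREB1D and ERF025 on chromosome A10 lie 3327 bases apart: DREB1D fell and ERF025 rose. On chromosome A08, ERF054 (BraA08g019170.3C) rose by 3.01 (SE 0.125, edgeR adjusted p = 3.57e-07) and CRF4 (BraA08g019240.3C) fell by 0.51. On chromosome A09, TINY (BraA09g005790.3C) rose and ERF003 (BraA09g005950.3C) fell by 1.23 (SE 0.213, edgeR adjusted p = 0.0013), with SHINE 3 (BraA09g005880.3C) between them at 1.77 and not called (edgeR adjusted p = 0.244). All counts of this ERF003 gene lay in an assembled transcript that shares a junction with the annotated one, which was at 0 in every library.

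For some members most of the counts listed under the gene name lay in transcripts that the gene value leaves out. In all, 256 transcripts were listed under the members and 189 were tested, of which 57 were higher and 36 lower. That is 49.2% called, against 29.5% of all tested isoforms, a set that also holds transcripts outside annotated genes. At the gene level the shares were close, at 66.2% and 62.4%. Only 33 of the 216 members had at least 2 listed transcripts, and none of them had transcripts called in both directions. How often this occurs over all genes was not counted. For 22 members a transcript lay outside the gene value: 10 transcripts overlapped the gene on the same strand, 4 were single-exon transcripts reaching beyond an annotated exon, 8 lay beside the gene without overlap and 2 lay on the opposite strand. The members named next were chosen after their values were seen. Their transcripts outside the gene value are not a measure of the member's mRNA. The single-exon ones may be fragments of unspliced RNA, and a transcript on the opposite strand is not RNA of the member. ERF104 (BraA03g044630.3C), a substrate of a defence-related kinase in Arabidopsis, had 0.939 CPM in leaf replicate 3 and 0 elsewhere as a gene value. A single-exon transcript over the same gene stood at 92.5, 83.6 and 86.5 CPM in leaf and at 9.68, 17.5 and 16.6 CPM in petiole, a difference of -2.53 (SE 0.248, edgeR adjusted p = 0.0013). DREB1B (BraA03g015940.3C), known as CBF1, had at most 0.114 CPM as a gene value, while such a transcript read 28.2 to 33.2 CPM in leaf and 20.3 to 30.1 CPM in petiole and was not called. ERF114 (BraA06g025380.3C) was near 0 on its own strand, and a transcript on the opposite strand read 54.0 to 55.2 CPM in leaf and 21.4 to 23.2 CPM in petiole. None of the 886 circular RNAs in the deposited table came from a member.

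The genes around the family in the ethylene pathway went both ways. Among 28 tested genes named for ethylene synthesis 9 were higher and 13 lower in petiole, with a median of -0.51. Of the synthases, which make the ethylene precursor, 1 was higher and 5 lower of 8. Among them, 1-aminocyclopropane-1-carboxylate synthase 6 (BraA09g027250.3C), read 718 ± 11.7 CPM in leaf and 306 ± 15.6 CPM in petiole (SD, n = 3), a difference of -1.23 (edgeR adjusted p = 1.6e-07). Of the oxidases, which turn the precursor into ethylene, 7 were higher and 3 lower of 11. The oxidase 1 gene BraA07g001200.3C read 3.7 ± 0.30 CPM in leaf and 75 ± 4.2 CPM in petiole (SD, n = 3), a difference of 4.34 (edgeR adjusted p = 1.3e-08). The oxidase highest in CPM in both tissues, BraA09g015910.3C, was lower in petiole. It read 448 ± 9.64 CPM in leaf and 187 ± 9.50 CPM in petiole (SD, n = 3), a difference of -1.26 (edgeR adjusted p = 1.6e-07). The oxidase homologs, named by sequence likeness, gave 1 higher and 5 lower of 9. Perception and signalling genes gave 3 higher and 7 lower of 16, with a median of -0.18.

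Genes with descriptions like those of known targets of single groups were counted in the same way. The lists were drawn by description, so they can also hold relatives that are not targets. Cold and drought genes, listed for the DREB groups, gave 9 higher and 2 lower of 18, with a median of 0.47. Dehydrin ERD14 (BraA07g039660.3C) read 4.34 ± 2.17 CPM in leaf and 50.5 ± 1.98 CPM in petiole (SD, n = 3), a difference of 3.54. Dehydrin Rab18 (BraA09g009670.3C) fell by 4.53, from a mean of 0.661 CPM in leaf to 0.0272 CPM in petiole. The genes named COLD-REGULATED 15B and KIN2 were at 0 in every library or were not called. Low-oxygen genes, listed for group VII, gave 6 higher and 4 lower of 13, with a median of 0.13. Alcohol dehydrogenase class-P (BraA07g040570.3C) was at 55.7 ± 4.13 CPM in leaf and 400 ± 2.47 CPM in petiole, and pyruvate decarboxylase 2 (BraA10g013010.3C) at 59.7 ± 1.66 and 383 ± 14.2 CPM (SD, n = 3). Non-symbiotic hemoglobin 1 (BraA07g004830.3C) rose by 2.76, and non-symbiotic hemoglobin 2 (BraA05g036230.3C) fell by 2.03. Defence genes, listed for group IX, gave 6 higher and 8 lower of 17, with a median of -0.22, which became 0.04 relative to all genes on log2(FPKM + 1). Wax and cutin genes, listed for group V, gave 14 higher and 21 lower of 44, with a median of -0.36. The related AP2-domain families gave 7 higher and 8 lower of 21, with a median of 0.17, and -0.01 relative to all genes on log2(FPKM + 1). The shares of calls in these lists stand beside 62.4% over all genes. The genes named from these lists were chosen after their values were seen.

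Markers of other cell types moved between the tissues as well. Markers of dividing cells gave 15 higher of 19, with a sum of 60.2 to 76.6 CPM in leaf and 131 to 149 CPM in petiole. All 4 tested xylem markers were higher, with 17.3 to 20.4 CPM in leaf and 48.4 to 61.4 CPM in petiole. Phloem markers gave 2 higher and 5 lower of 7, with sums of 406 to 424 CPM and 239 to 247 CPM. Markers of guard cells and stomatal patterning gave 4 higher and 5 lower of 11, with sums of 25.3 to 31.0 CPM and 9.77 to 13 CPM. The guard cell anion channel SLAC1 was at 0 in all petiole libraries and at 6.4 ± 1.53 CPM (SD, n = 3) in leaf. Their part in the members' changes was not tested.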

How the data were processed

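Total RNA of 3 leaf and 3 petiole libraries, grouped by the tissue in their titles, was sequenced after ribosomal RNA removal. The authors deposited estimated counts and FPKM for each transcript, and read counts for circular RNAs, per the file headers. The submitters' processing notes list HISAT2, StringTie and TopHat, with neither version nor role. The build behind the coordinates, which are copied from the files, is not given in the sources used here. All 6 libraries entered every fit, and 6 columns of a scaled circular RNA signal were not used.

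A gene value is the sum of the deposited estimated counts over its annotated transcript and the assembled ones that have a junction in common with it or are contained in it. The deposited counts were whole numbers. Genes with a mean of at least 10 counts were tested, petiole minus leaf, with edgeR 4.0.16 in R 4.3.3 (TMM, quasi-likelihood F test, Benjamini-Hochberg adjustment over all tested genes). The SE is the log2 difference divided by the square root of F. Isoforms were tested likewise. Where a tissue was at 0, folds are lower bounds against 3 counts over its 3 libraries; they cover counting error only and fail where a low level was quantified as 0. The sum of gene counts sets the precision, and a count of 0 in a library allows up to 0.0288 to 0.0432 CPM.

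The members, gene groups and lists were chosen with earlier results of these data known. The rule for named members took the 10 largest called rises and falls without overlap, the 10 highest mean levels, the largest call in each direction per group, group VII, LEP, ESR1, ESR2, ERF13 on chromosome A09, and runs of neighbours called all in one or in opposite directions. Alternatives were DESeq2 1.42.0, its size factors, other count filters, other sets of transcripts, limma 3.58.1 on log2(FPKM + 1) and log2(FPKM + 0.1), the replicate number as a block, and each library left out. In counts simulated for the leaf and petiole comparison (27984 genes, 200 of them changed), edgeR recovered 23.9% of the 1.5-fold, 53.7% of the 2-fold and 72.7% of the 4-fold changes, with 5 false calls. In the data 62.4% of genes were called, and the adjusted threshold depends on the share that changes. These figures therefore do not give the recovery or the false calls of the real comparison. No sequences or promoters were used here.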

Additional observations from a re-analysis of the deposited data

How the results depend on the processing

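Of 2273 member values under the alternatives, 2111 kept direction and side of the threshold, 75 lost a call, 66 gained one and 21 reversed with a call on either side. The members called higher numbered 57 to 64 and those called lower 35 to 40 with 1 library left out. A member whose mean fell below 10 counts in such a fit was not tested there. Among called members these were DREB2D (BraA07g027750.3C) without leaf replicate 1 and ERF112 (BraA05g011240.3C) without leaf replicate 2. ERF057 (BraA02g044990.3C) was not tested without petiole replicate 3. Of the 102 called members, 91 kept their call in each of the 6 fits in which they were tested. Those that lost it at least once, without an adjusted p given above, were CRF2 (BraA01g014470.3C, adjusted p = 0.0516 to 0.0947), CRF3 (BraA02g014680.3C, 0.054 to 0.0616), ERF070 (BraA02g020260.3C, 0.0624 to 0.0936), ERF008 (BraA04g017150.3C, 0.0539 to 0.0726) and ERF061 (BraA09g013830.3C, 0.0601 to 0.152). ERF116 (BraA09g037990.3C), not called with all libraries at -0.03, ranged from -0.29 without leaf replicate 2 to 0.54 without leaf replicate 1, where it was called.

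DESeq2 called 65 members higher and 43 lower, and limma on log2(FPKM + 1) and log2(FPKM + 0.1) called 83 and 31, and 85 and 31. Over all genes the calls with 1 library left out were 8027 to 8453 higher and 8047 to 8253 lower. On annotated transcripts alone they were 5065 and 4888, on log2(FPKM + 1) 16497 and 4257, and on log2(FPKM + 0.1) 16560 and 4269. On annotated transcripts alone, RAP2-2 BraA01g037410.3C was at -0.054 and ERF118 BraA07g030720.3C at 10.33, where its leaf libraries are at 0. The FPKM scales, given here with a pseudocount of 1 and then 0.1, turned 9 members: BraA02g018500.3C (0.49 and 0.65), BraA02g020260.3C (0.0170 and 0.0173), BraA02g024500.3C (0.16 and 0.17), BraA02g033740.3C (0.38 and 0.41), BraA03g036860.3C (0.66 and 0.66), BraA03g039310.3C (0.43 and 0.48), BraA05g013460.3C (0.0187 and 0.0206), BraA07g033640.3C (0.52 and 0.55) and BraA08g019240.3C (0.21 and 0.23). Of these, 4 had been called, and none of the 4 stayed turned relative to the median of all genes. Read against that median, 1 called member turned on log2(FPKM + 1) and 0 on log2(FPKM + 0.1): ERF057 (BraA02g044990.3C), at 0.37 against a median of 0.48. The causes were not tested.

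Samples that share a replicate number did not deviate together (correlations of 0.0031, 0.0030 and -0.0026). That cannot tell whether they came from the same plants, which the labels do not say. With the replicate block 60 members were higher and 37 lower.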
